A study of Homo sapiens with 2 samples.

Results

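IGF2R, the gene of the cation-independent mannose 6-phosphate receptor, held 35 of the 20499 NUDT21 eCLIP peaks deposited for J-Gamma1 cells (0.171%). Its peaks were those whose midpoint lay in the gene body, which GENCODE 44 places at chr6:159969082-160113507 of hg38 on the plus strand (ENSG00000197081.16, 144426 nt). The gene was selected because more of its peaks were assigned to a 3'UTR than those of any other gene in this same list, so its peak counts, heights and regions are a description and none was tested.

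The study used eCLIP to ask if NUDT21 acts directly in the 3'-end processing of genes whose polyadenylation site use changed on its knockdown. The series held 1 library made with a NUDT21 antibody and 1 input library, both of J-Gamma1, a Jurkat-derived cell line of human T-cell acute lymphoblastic leukemia. For both, cells were exposed on ice to 254 nm UV-C light 2 times at 400 mJ each, lysed for 15 min, and digested with 40 U of RNase I at 37 °C for 5 min. In eCLIP-seq the UV light crosslinks protein to RNA, the antibody recovers the complexes, and the RNA is sequenced. The input library was not used here, and neither library had a replicate, so no value has an error between samples and every interval below covers counting error only. All values are of 1 cell line. The depth was unknown, as read totals were not part of the list, and the list gave no strand, so a peak was tied to a gene by position alone. No other annotated gene lay at the midpoint of any IGF2R peak.

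The IGF2R protein travels between the trans-Golgi network, endosomes and the cell surface. It carries lysosomal hydrolases that bear the mannose 6-phosphate tag, and at the surface it binds insulin-like growth factor 2 (IGF2) and takes it in for degradation. NUDT21 is the subunit of cleavage factor I that recognises UGUA in RNA, and the complex acts in the choice of polyadenylation site, which lies in the 3'UTR of most genes. Whether a peak is counted in a 3'UTR depends on the transcripts used, because a transcript that stops early turns the downstream coding exons into its 3'UTR. Transcripts of this kind are commonly removed by nonsense-mediated decay.

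The sequences on which the regions of these peaks turned were the stop codons of the 3 full-length IGF2R transcripts, printed 5′ to 3′ from the hg38 plus strand with the stop in capitals. The reference transcript, IGF2R-201 (MANE Select, ENST00000356956.6), stops in its last exon. IGF2R-208 and IGF2R-210 are annotated as nonsense-mediated decay transcripts, and each stops within 1 extra exon that the reference lacks. The window of IGF2R-208 runs across the splice junction into that exon, so its 2 ends lie on either side of an intron.
IGF2R-201 stop, chr6:160105070-160105096: cucuuacacaucUGAcuccgcagugcc
IGF2R-208 stop, spliced between chr6:160046638 and 160046910: gcaaaaagugccUAGauaucucugugc
IGF2R-210 stop, chr6:160068877-160068903: cgaagaaugauuUAAggguguuaacag

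The extra exon of IGF2R-208 (ENST00000676781.1) lies at chr6:160046892-160047057, between reference exons 15 and 16, and its stop begins at nt 5 of the 166 nt exon. The extra exon of IGF2R-210 (ENST00000677704.1) lies at chr6:160068845-160069014, between reference exons 30 and 31, and its stop begins at nt 45 of 170. The reading frames end after 685 and 1432 residues, against 2491 in the reference. The annotated 3'UTR therefore grows from 6420 nt in 1 exon of the reference to 9767 nt over 19 exons in IGF2R-210 and 12004 nt over 34 exons in IGF2R-208. No peak overlapped either extra exon. The nearest peaks lay 1441 nt from that of IGF2R-208, in exon 18, and 501 nt from that of IGF2R-210, in exon 30. The list therefore held no peak on the sequence that sets either decay transcript apart from the reference.

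The 8 occurrences of UGUA on the gene strand within exonic IGF2R peaks are given here in windows of 30 nt from hg38, plus strand, written as RNA with UGUA in capitals, since they show where the recognised letters do lie under a peak. The first 6 are coding and the last pair is 3'UTR.
Exon 11, chr6:160040569-160040598: ggaaaggaacuccUGUAuucacaggggagg
Exon 25, chr6:160061842-160061871: ucuuugagcaucaUGUAugucaacggugac
Exon 34, chr6:160073281-160073310: guccugcagcuggUGUAcaaggaugggucc
Exon 39, chr6:160080208-160080237: ggcgaagcuguggUGUAgcacaacugcgga
Exon 44, chr6:160089950-160089979: ggggacaacuaccUGUAugagauccaacuu
Exon 47, chr6:160103764-160103793: gcugaccacuugcUGUAggagaaguuccaa
3'UTR, 2907 nt past the stop, chr6:160107978-160108007: ugguccgauccauUGUAcaaguuaaagcac
3'UTR, 2996 nt past the stop, chr6:160108067-160108096: gucaccaggagguUGUAuggacgagacugg

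With any transcript counted and the 3'UTR taken first, 27 of the 35 midpoints lay in a 3'UTR, 5 in coding sequence (CDS) and 3 in introns. With the reference transcript alone, 29 lay in CDS, 3 in the 3'UTR and 3 in introns. The 24 peaks that changed region were CDS in the reference and 3'UTR solely through the decay transcripts. They were 88.9% of the 27, and over the whole list 33.0% of the 3'UTR-assigned peaks also lay in CDS. The gene was chosen on the 27, so nothing is read from the difference between those shares. Of the 24, 15 lay downstream of both early stops, in exons 31 to 48, and 9 lay between them, in exons 18 to 30, where only IGF2R-208 annotates a 3'UTR. Without IGF2R-208 the 3'UTR count was 18, and without IGF2R-210 it remained 27. By 3'UTR-assigned peaks IGF2R ranked 1, before ANKRD11 with 25, and by 3'UTR peaks of the reference transcript it ranked 169, among 328 genes with 3 or more. Its 3 such peaks were the lowest number in that group, so this rank is tied with other genes and is not a middle place.

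**Figure D1:**
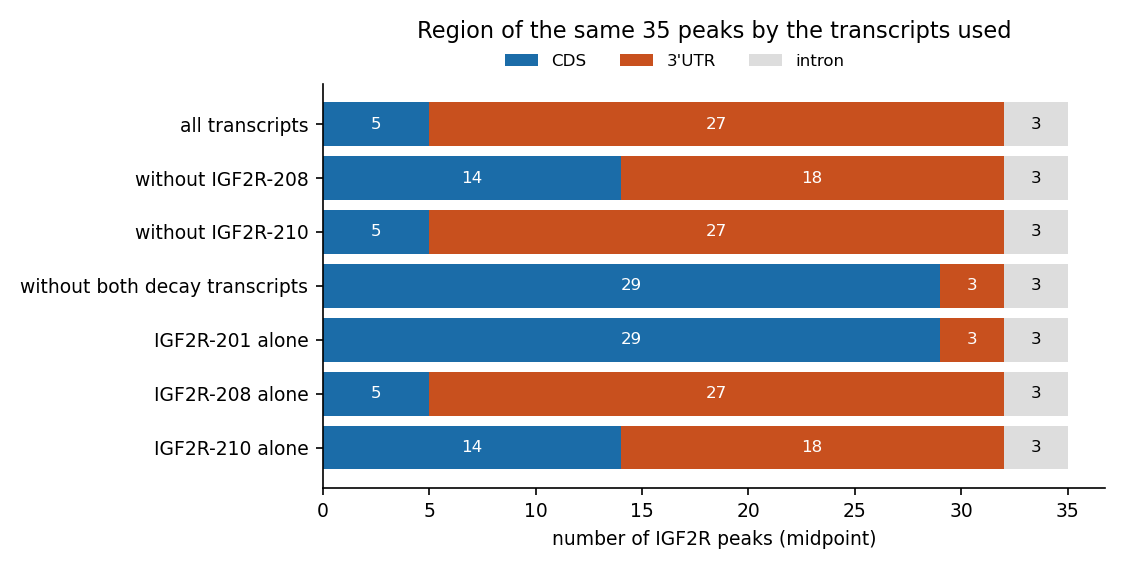
Number of IGF2R peaks by the region of their midpoint (horizontal axis, peaks) for 7 sets of annotated transcripts (rows), with the 3'UTR taken first wherever a set holds several transcripts. The same 35 peaks give 27 in a 3'UTR with all transcripts and 3 without the decay transcripts, while the 3 intronic peaks stay the same.

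Along the reference transcript (48 exons, 14061 nt) the peaks were dense in the CDS and sparse in the 3'UTR. The CDS of 7476 nt held 3.88 peaks per kb and the 3'UTR of 6420 nt held 0.467 per kb, an 8.30-fold difference in density. Both densities are over annotated lengths, and how much of the annotated 3'UTR these cells transcribe was not examined here. Peaks covered 2283 nt of the CDS (30.5%) and 601 nt of the 3'UTR (9.36%). The height of a peak is given below in steps, because its deposited Score, a pileup, took only whole multiples of 0.228. From the values, 1 step would be 1 read of the antibody library, but that scale is an inference. Fold enrichment is the authors' ratio, which in these values equals Score plus 1 over local background plus 1, so it understates the plain ratio of pileup to background.

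The 29 CDS peaks were of similar height, from 6 to 15 steps with a median of 9. Their fold enrichment ran from 2.19 to 3.70 (median 2.78) and their length from 48 to 195 nt (median 80 nt). The highest was in exon 8, over codons 330 to 349 (chr6:160032658-160032730), with 15 steps and a fold enrichment of 3.70. Exon 1 followed with 14 steps and 3.51, over codons 18 to 50, and exon 32 with 13 steps and 3.61, over codons 1495 to 1524. A peak of 195 nt and 13 steps lay over codons 2451 to 2491 and ran across the reference stop codon, with its midpoint in the CDS. The lowest CDS peak, in exon 19, had 6 steps and a fold enrichment of 2.19. All CDS peaks thus lay within a span of 9 steps.

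**Figure D2:**
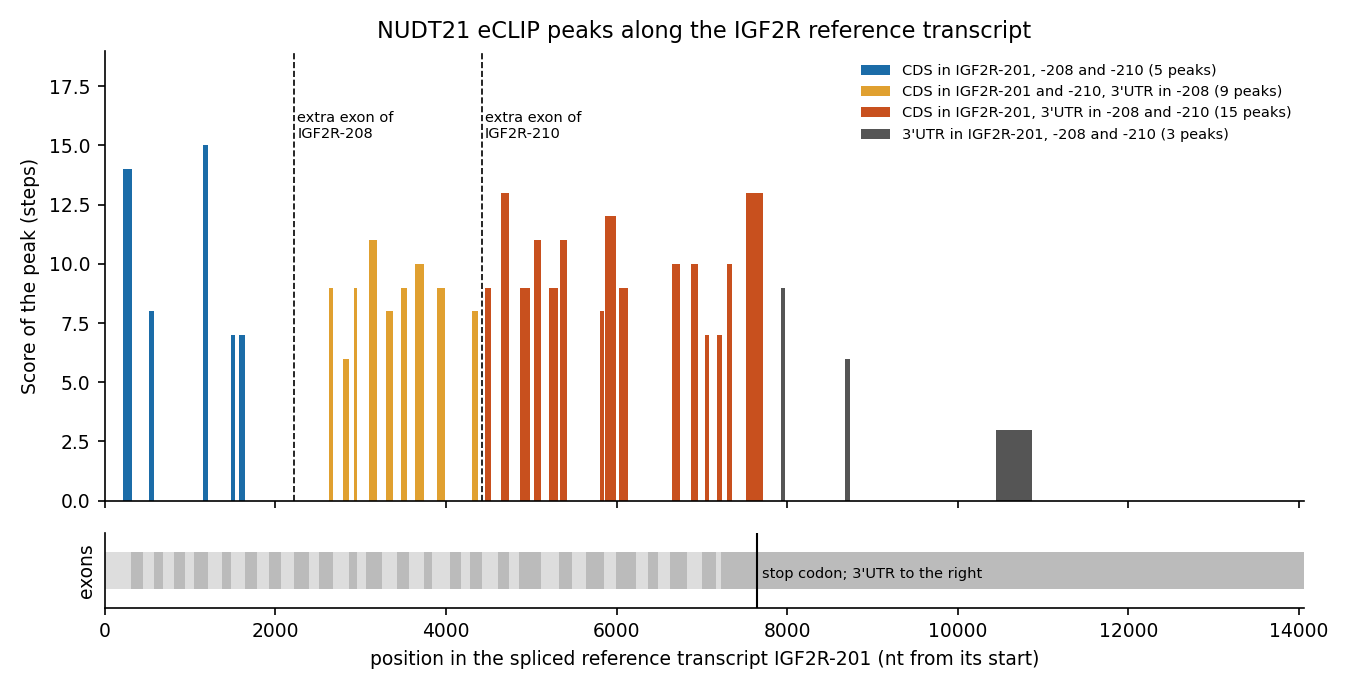
Height of each exonic IGF2R peak (vertical axis, Score in steps) against its position in the spliced reference transcript (horizontal axis, nt), with bar width the stretch of the peak in exons, colour the transcripts that annotate it as CDS or 3'UTR, dashed lines the junctions where the extra exons of the decay transcripts enter, and alternating greys below marking exons. The 29 CDS peaks stand at 6 to 15 steps up to the stop codon, and the 3'UTR beyond it holds 3 peaks of 9, 6 and 3 steps.

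The p-values of the peak caller for the CDS peaks ran from 2.36e-05 to 0.0162. They depended on the local background as well as on height. The lowest belonged to a peak of 10 steps in exon 48, codons 2377 to 2397, with a background of 0.0528, while the 15-step peak of exon 8 had 4.86e-05 over a background of 0.192, both in units of Score. The false discovery rate (FDR) deposited for each of the 35 peaks was 1. An FDR under 0.05 was held by 0 of the 35, and by 0.0927% of the whole list.

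The 3 peaks of the reference 3'UTR became lower with distance from the stop codon. The first, 306 nt past the stop (chr6:160105367-160105414), had 9 steps and a fold enrichment of 2.37. The second, 1066 nt past it (chr6:160106124-160106176), had 6 steps and 2.07. The last, 3017 nt past it (chr6:160107887-160108315), had 3 steps and 1.61 over a length of 429 nt, the longest of the exonic peaks. The remaining 3189 nt up to the annotated end of the transcript held no peak. This distal stretch includes the annotated polyadenylation site.

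The poly(A) signal hexamers AAUAAA and AUUAAA, which mark sites of cleavage for the polyadenylation machinery, occurred 6 and 2 times in the reference 3'UTR on the gene strand. The last AAUAAA, at chr6:160111415-160111420, ended 84 nt before the annotated end of the transcript, and the nearest peak was 3100 nt away. One AUUAAA, at chr6:160107959-160107964, lay inside the 3-step peak. The other 7 hexamers lay 356 to 3100 nt from the nearest peak. A hexamer is a match of letters and not a measured site of cleavage.

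Intronic peaks were lower than all those in exons. One lay in intron 1, 1282 nt past exon 1, with 1 step and a fold enrichment of 1.17, and a pair lay in intron 19 with 2 steps and 1.39 each. All 3 had a p-value of 0.0469, which they shared with the 3-step peak of the 3'UTR. Beside the rest of the list, 31 of the 32 exonic IGF2R peaks had 5 or more steps, against 68.7% of 11054 exonic peaks of other protein-coding genes, whose median was 7 steps (quartiles 3 and 9). Of those other peaks, 95.4% were lower than the highest peak of IGF2R and 70.9% were lower than its exonic median of 9. Of the 7805 intronic peaks elsewhere, 9.38% had 5 or more steps and the median was 1. The exonic IGF2R peaks thus stood in the upper part of the list without reaching its maximum of 45 steps. Such heights were not particular to IGF2R among genes with many peaks. In the genes described below as most like it, the exonic medians were 14 steps in DNMT1, 10.5 in ANKRD11, 9 in SPEN, 9 in RBM33 and 8.5 in DYNC1H1.

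**Figure D3:**
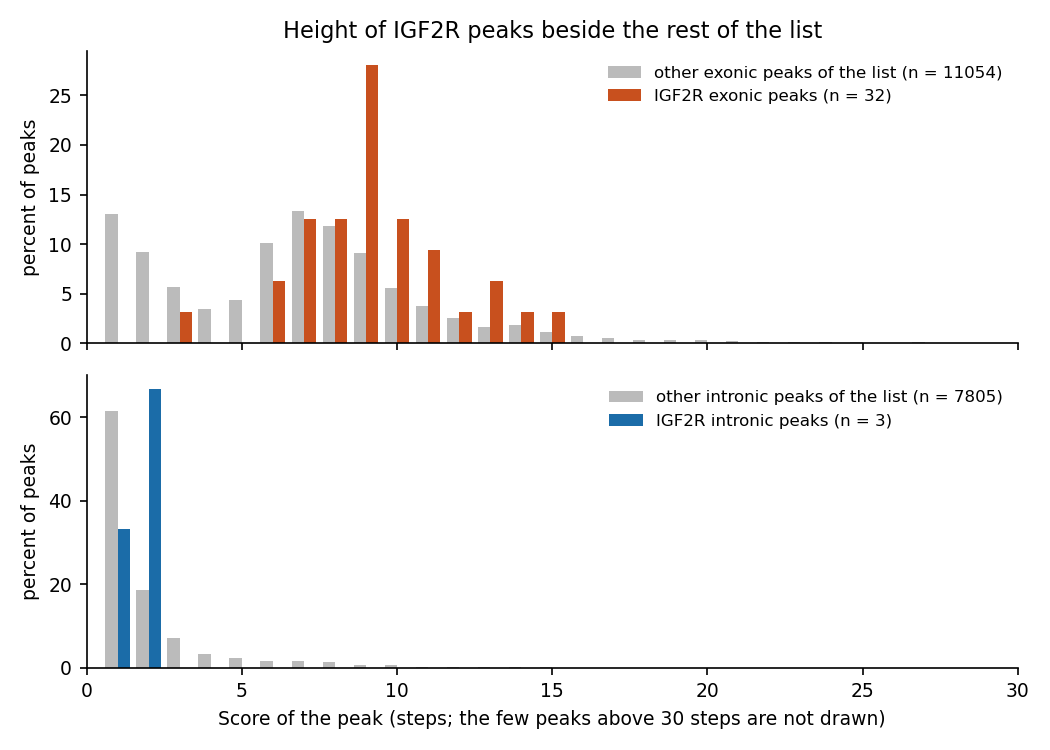
Distribution of peak height (horizontal axis, Score in steps) as a percent of the peaks of each group (vertical axis), for exonic peaks (top) and intronic peaks (bottom) of IGF2R in colour and of the rest of the list in grey. The exonic peaks of IGF2R lie between 3 and 15 steps with a median of 9, against a median of 7 elsewhere, and its 3 intronic peaks lie at 1 and 2 steps.

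Peaks were found in 26 of the 48 reference exons (54.2%), and exons 11, 34 and 48 held more than 1. In the 5' part of the gene, exons 1 to 16, 4 exons had a peak, at 2.24 peaks per kb of CDS. In exons 17 to 32 the number was 11, at 4.70 per kb, and in exons 33 to 48 it was also 11, at 4.47 per kb. The median heights of the CDS peaks in these 3 parts were 8, 9 and 10 steps. The longest run without a peak was exons 12 to 17 (865 nt), which spans the junction of exons 15 and 16 where the extra exon of IGF2R-208 enters, followed by exons 4 to 7 (468 nt). By number of exons, the longest run with a peak in each was exons 44 to 48. The 24 internal exons with a peak had a median length of 170 nt (70 to 257 nt) and a median GC content of 53.5%. For the 22 without, the medians were 132 nt (88 to 178 nt) and 49.1%. Length and GC content of the exons thus moved with the presence of a peak, and their part in it was not tested.

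Many peaks reached past the downstream edge of their exon into the intron. Of the 26 peaks in internal exons, 12 (46.2%, 95% exact Clopper-Pearson interval 26.6 to 66.6) ended 3 to 26 nt beyond the downstream edge, with a median of 17.5 nt. One, in exon 11, began 25 nt before the upstream edge, and 13 lay inside their exon. Among the peaks in internal exons of other genes, 34.7% of 4969 passed the downstream edge only and 4.59% the upstream edge only. The share was 34.6% for genes of the plus strand and 34.8% for genes of the minus strand, so the side followed the direction of transcription on both strands, although the list itself has no strand. The interval of IGF2R holds the share of the other genes. It counts peaks of 1 gene as if independent, so the difference in shares was not tested and nothing is read from it.

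**Figure D4:**
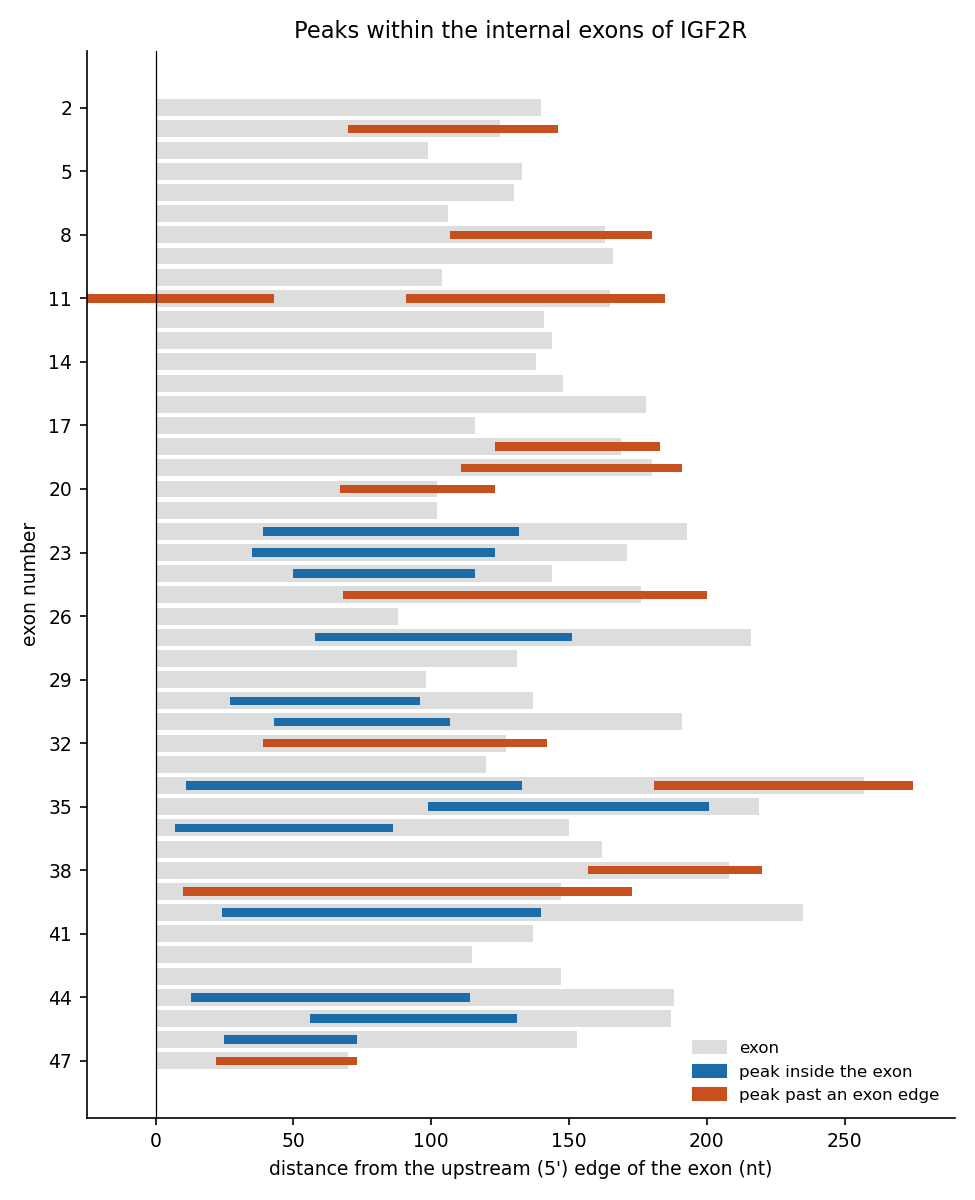
Peaks (coloured bars) within the 46 internal exons of IGF2R (grey bars, one row per exon, numbered from the 5' end), aligned at the upstream exon edge (horizontal axis, nt). Orange peaks pass an exon edge, 12 of them at the downstream end and 1, in exon 11, at the upstream end, and the 13 blue ones lie inside.

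UGUA, the letters that NUDT21 recognises, was present on the gene strand in 7 of the 32 exonic peaks (21.9%, 95% exact Clopper-Pearson interval 9.28 to 40.0). Among exonic peaks of other protein-coding genes the share was 32.8%, within that interval. The interval counts peaks of the same gene as if independent, so the difference in shares was not tested and nothing is read from it. With peaks limited to 200 nt or shorter, 6 of 31 IGF2R peaks (19.4%) and 24.3% of the others held it. On the opposite strand the share in IGF2R was 28.1%. Extending each peak by 50 nt on both sides raised the share on the gene strand to 34.4%, and the longer motifs UGUAA or UGUAU were found in 12.5%. Most of the exonic peaks therefore held no UGUA, and the share was not higher on the gene strand than on the opposite one. No match says only that the letters are not in that window.

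The 6 coding peaks with UGUA had 7, 10, 9, 12, 10 and 7 steps from exon 11 to exon 47, around the median of 9 of all CDS peaks. Both 3'UTR occurrences lay in the low 3-step peak, downstream of its AUUAAA. Per kb of CDS, UGUA occurred 2.63 times in peaks (6 in 2283 nt) and 2.12 times outside them (11 in 5193 nt). Per kb of 3'UTR it occurred 3.33 times in peaks (2 in 601 nt) and 4.81 times outside (28 in 5819 nt). Of the 30 occurrences in the reference 3'UTR, 28 were thus outside every peak. The exonic peaks of IGF2R had a median GC content of 55.0%, against 46.5% for exonic peaks of other genes, and the part of base composition in the share with UGUA was not tested.

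Among the 28 protein-coding genes with 20 or more exonic peaks, IGF2R ranked 5 from the top by peaks per kb of CDS (median of the 28 genes 2.48, range 0.827 to 6.33) and 22 by peaks per kb of 3'UTR (median 0.959, range 0 to 3.79), both on the reference transcript. The genes most like it were those with the smallest summed difference in the shares of their peaks that were intronic, CDS only, CDS of one transcript and 3'UTR of another, 3'UTR only, and other. They were DNMT1, the maintenance DNA methyltransferase (distance 0.290), DYNC1H1, the heavy chain of cytoplasmic dynein (0.343), SPEN, a transcriptional corepressor (0.438), ANKRD11, a chromatin-associated protein (0.457), and RBM33, an RNA-binding protein (0.676).

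In DNMT1, 19 of 24 peaks were CDS of one transcript and 3'UTR of another, with 20 peaks in the reference CDS and 1 in the reference 3'UTR. The highest DNMT1 peak had 25 steps and a fold enrichment of 5.85, above the 15 steps of IGF2R. In ANKRD11, 25 of 34 peaks had both annotations and 0 lay in the reference 3'UTR, and in SPEN the numbers were 19 of 21 and 1. As in IGF2R, most of the 3'UTR-assigned peaks came from decay transcripts alone in 4 of these genes, 25 of 25 in ANKRD11, 19 of 20 in DNMT1, 18 of 20 in SPEN and 18 of 18 in DYNC1H1. RBM33 differed, with 7 of 16 from decay transcripts alone and 9 peaks in the reference 3'UTR. CDS peaks counted as 3'UTR through decay transcripts were therefore found in other genes of this list too. The share of peaks with both annotations was among those used to pick these genes, so its high value in them followed from the choice. Over the 28 genes its median was 5.30% (range 0 to 90.5%).

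**Figure D5:**
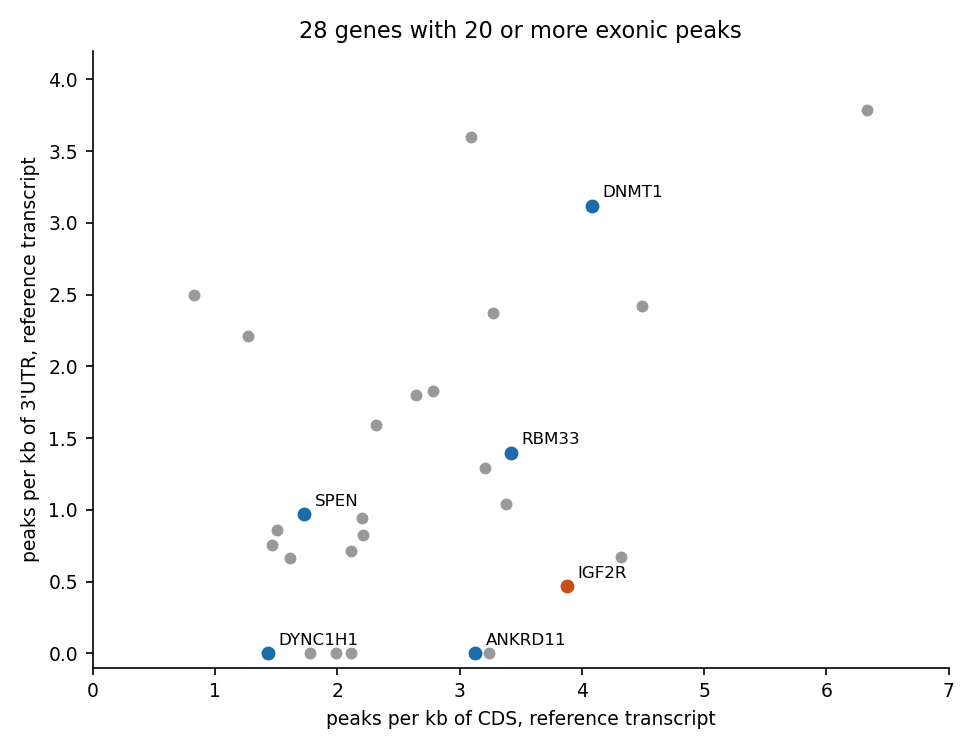
Peaks per kb of CDS (horizontal axis) against peaks per kb of 3'UTR (vertical axis), both on the reference transcript, for the 28 genes with 20 or more exonic peaks. IGF2R (orange) lies at 3.88 and 0.467, and the 5 genes most like it by region shares (blue) spread from 1.43 to 4.08 on the horizontal axis.

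Of 53 genes of IGF2 signalling and of the mannose 6-phosphate route, 29 had a peak in the gene body (54.7%), against 33.4% of all 19383 protein-coding genes, and 21 had an exonic peak (39.6%), against 22.6%. RNA levels were not part of this series, and the study's separate RNA-seq was not used here. How strongly these genes were expressed beside the rest was therefore not examined. No peak lay in IGF2 itself. Among the receptors, 4 of 5 had a peak. M6PR, the smaller cation-dependent receptor of the same tag, had 2 exonic peaks, of up to 8 steps, 1 in its reference CDS and 1 in its 3'UTR. IGF1R, the signalling receptor of the growth factors, had 4 peaks, 1 of them exonic, with 7 steps. INSR, the insulin receptor, had a single CDS peak of 6 steps. SORL1, a sorting receptor, had 6 peaks, 3 of them exonic. None of the other receptors on the list thus had more than 3 exonic peaks, against 32 in IGF2R.

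Among the 18 genes that carry the receptors between compartments, 13 had a peak. CLTC, the clathrin heavy chain, had 5 peaks of up to 11 steps, and VPS35, a retromer subunit, had 4 exonic peaks of up to 10 steps. Of the 3 genes that make the tag, 2 had a peak, among them GNPTAB, which encodes the catalytic subunits of the phosphotransferase and had 5 peaks, 3 in its CDS. Of the 20 hydrolases that receive it, 8 had a peak. CTSD, cathepsin D, had 6 exonic peaks of up to 13 steps and a fold enrichment of up to 3.32, while IDUA, the iduronidase, had 6 peaks of 1 step each. Of the 7 ligands and binding proteins, 2 had a peak, and both encode proteins that bind mRNA (named here after their values were seen). IGF2BP1 had 3 peaks, 2 of them exonic, and IGF2BP3 had 2 intronic peaks of 1 step. The growth factors IGF2 and IGF1 and the growth factor binding proteins IGFBP2 and IGFBP4 had none. The FDR of every peak in the 53 genes was 1.

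Next to IGF2R, no peak lay in AIRN, the antisense RNA of the locus, nor in MAS1, SLC22A2 or TCP1, and PNLDC1 had 1 intronic peak of 1 step. None of these neighbours thus held an exonic peak. As a check of the cell type, 7 of 12 genes listed as T-cell markers had a peak, against 33.4% of all protein-coding genes. An exonic peak was held by 6 of the 12, against 22.6%, as the only peak of ZAP70 was intronic and of 1 step. LEF1 had 12, CD3E had 3, and PTPRC, which other leukocytes express too, had 8, while CD3D, CD3G, CD28, LCK and LAT had none. Of 6 B-cell markers only CD79B had a peak, intronic and of 1 step, and none of 6 myeloid markers had one. These lists are small, and RNA levels were not part of this series. The study's separate RNA-seq of these cells was not used here.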

How the data were processed

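eCLIP-seq of 1 NUDT21 antibody library of J-Gamma1 cells was analysed from its deposited peak list. The authors trimmed reads with fastp, corrected and removed duplicates by molecular identifier, removed ribosomal RNA reads, mapped the rest to hg38 and called peaks with MACS2, with local windows of 1000 and 10000 nt and a stated q-value threshold of 0.05. The aligner is not given in the sources used here, nor whether the input was the control. The deposited Score has no stated unit and lay on whole multiples of 0.228 (within 0.0049). The deposited fold enrichment is a ratio that equals Score plus 1 over background plus 1, which gave the local background. The deposited p-value was recovered as the Poisson tail above the whole part of Score for 100% of peaks, within 1% of log10 p, and the deposited FDR is a q-value. The deposited list does not match the stated q-value threshold: every p-value in it is under 0.05, but the FDR is under 0.05 for only 19 peaks. Low peaks take few distinct p-values, because only the whole part of Score enters the Poisson tail. The IGF2R peaks of 1, 2 and 3 steps, all over a background of 0.048, shared a Poisson p-value of 0.0469. No p-value was used as a test here.

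Midpoints were assigned with GENCODE 44 with a 3'UTR taken first, then 5'UTR, then CDS, then noncoding exons and then introns. UGUA was counted in the hg38 sequence on both strands. Shares have 95% exact Clopper-Pearson intervals. No p-value was computed, since peaks of 1 gene do not replicate each other. The assignment was tested on simulated positions, each with and without a decay transcript, and 100% of 3200 assignments were correct. No simulated position lay in the extra exon of the decay transcript or in a noncoding exon. Scripts ran in Python 3.11.15 with pysam 0.24.0 for sequences, scipy 1.17.1 for intervals, pandas 2.3.3 and numpy 2.4.6 for tables, and matplotlib 3.10.9 for plots.

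IGF2R, the gene lists and the alternatives were chosen with earlier results of these data known. Named genes were IGF2R, its neighbours (1 is not reported here), the 5 most like genes, and of the pathway list M6PR, IGF2, IGF1R, INSR and the 6 with most peaks (VPS35 and IGF1R tied). Alternatives were a lower FDR, a fold enrichment of at least 2, 5 or more steps, merging within 100 nt, any overlap, CDS before 3'UTR, other transcript sets, and other motif windows. Protein sequences were not used here.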

Additional observations from a re-analysis of the deposited data

How the results depend on the processing

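The number of IGF2R peaks stayed between 31 and 35 with any overlap, merging, a fold enrichment of at least 2 or 5 or more steps, and was 0 with an FDR under 0.05, since each FDR was 1. The number assigned to a 3'UTR stayed at 26 or 27 with any overlap and the same limits on height, and fell from 27 to 3 with CDS before 3'UTR, to 3 with the nonsense-mediated decay transcripts left out and to 3 with the reference transcript alone, by construction of those settings. Leaving out IGF2R-208 alone (18) or IGF2R-210 alone (27) was tried after the data had been seen. The 26 exons with a peak and the median exonic Score of 2.05 did not move under any alternative run. Each of these exons held a CDS peak, and every CDS peak had at least 6 steps and a fold enrichment of at least 2.19. The limits on height could therefore not remove an exon, and an FDR limit was not run for either value. The median could hardly move either, since its alternatives were the reference exons alone and the fold limit. The reference exons held all 32 exonic peaks, and the fold limit dropped only the 3-step peak of the 3'UTR. The share of exonic peaks with UGUA ranged from 12.5% to 34.4%. The pathway list had 29 genes with a peak, 21 with an exonic peak and 18 with a peak of 5 or more steps. The share of all protein-coding genes with a peak of that height is not given here, so nothing is read from the 18. No paired analysis was possible because the antibody group has 1 library. The unknown depth limits what a missing peak says: an exon without one was not shown to lack contact.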

Other observations

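The double annotation of IGF2R peaks, CDS in one transcript and 3'UTR in another, was also present in smaller genes of the lists. These genes were picked after their values were seen. In PTPRC, the CD45 phosphatase of leukocytes, 8 exonic peaks were all assigned to a 3'UTR and 7 of them lay in CDS as well. In CTSD, 5 of 6 peaks were assigned to a 3'UTR and 3 of these lay in CDS too. In VPS35 the numbers were 4 of 4 and 2, in SNX1, a sorting nexin, 2 of 3 and 2, and in TPP1, a lysosomal peptidase, 2 of 2 and 2.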
